A study of Homo sapiens with 6 samples.

Results

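The genes described here encode cytokines and receptors of the interleukin-6 (IL6) family and of the interleukin-24 and interleukin-7 branches of cytokine signalling. STAT3, which carries the signal of the IL6 family, and its feedback inhibitor SOCS3 are also among them. They are the 10 genes IL24, IL6, IL11, LIF, IL7R, IL6R, IL6ST, OSMR, STAT3 and SOCS3, taken by their Ensembl identifiers from the 20042 genes of the count table. The members were selected on their symbols and on their log2 fold changes of siRNA-1 over control cultures, which were already known. Their values in that contrast are therefore a description: they carry an error but no p, and nothing is supported with them.

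The 6 RNA sequencing libraries came from MDA-MB-231, a breast cancer cell line, long established, that lacks hormone receptors and has mesenchymal features. In 3 cultures the cells were transfected with siRNA-1, a small interfering RNA against ERBBride, and are labelled as ERBBride knock down. The other 3 received a control siRNA (siCTRL) and are labelled as wild type (WT). Each group is a single cell line with a single siRNA, the labels state neither the time after transfection nor how the 3 biological replicates of a group were separated, and p-values therefore measure the spread between these cultures. The table had no row named ERBBride, and its level was not analysed here.

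Total counts were 12813706 to 15014434 per library. Levels are normalised CPM (read counts scaled to library size, with TMM factors), and fold changes set siRNA-1 over siCTRL. Of the 12440 genes with enough counts to test, 62.5% passed an adjusted p of 0.05 (edgeR quasi-likelihood test, Benjamini-Hochberg over all genes tested), 31.5% of them all upwards and 31.0% downwards; 10.1% passed with a change of at least 2-fold. The control library siCTRL 2 stood apart. Its counts differed from those of the other controls by a chi-square of 11.4 and 11.5 per degree of freedom, against 2.28 between siCTRL 1 and siCTRL 3 and 2.13 to 2.40 between siRNA-1 libraries. Values that rest on siCTRL 2 are given with and without it. Of 11 markers of the cell line, the mesenchymal genes VIM, CD44, AXL, CAV1, LGALS1 and ANXA1 averaged 350.3 to 1676 CPM in siRNA-1 and 472 to 2652 CPM in siCTRL cells and made up nearly all of the sum over the list, which was 4402 to 4507 CPM in siRNA-1 and 6995 to 7332 CPM in siCTRL libraries. The epithelial and hormone receptor genes were low: ESR1 had 0 to 3 counts and PGR 0, and CDH1, EPCAM and GATA3 averaged 0.500, 5.29 and 4.40 CPM in siRNA-1 and 2.24, 16.1 and 11.2 CPM in siCTRL cells. Since IL7R is best known from lymphocytes, 14 markers of blood cells were examined: CD3E, CD2 and MS4A1 had 0 counts in all 6 libraries, and PTPRC, the common leukocyte antigen, had 2 to 13. Their summed level was 9.81 to 10.3 CPM in siRNA-1 and 22.4 to 28.5 CPM in siCTRL libraries, most of it from CD14. It was lower in siRNA-1 libraries. The 4 markers that were tested, CD14, CD8A, LYZ and CSF1R, all fell, where 31.0% of all genes tested fell. The corresponding sum over 10 endothelial and fibroblast markers was 26.6 to 28.2 CPM in siRNA-1 and 39.8 to 42.4 CPM in siCTRL libraries. The part of these markers in the results was not tested.

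Cytokines of the IL6 family bind a receptor of their own and then recruit IL6ST (gp130), the signalling chain that they share. Kinases of the JAK family attached to the receptor then phosphorylate STAT3, which enters the nucleus and switches on target genes, among them SOCS3, whose protein binds the receptor and shuts the signal down. IL24 uses different receptor chains of the IL20 type, and IL7R pairs with the common gamma chain IL2RG for IL7 or with CRLF2 for TSLP, but these receptors also signal through JAK kinases and STAT factors. In breast cancer cells the IL6, LIF and OSM branches are known for links to inflammation and invasion. All values below are RNA levels and say nothing of protein or of phosphorylation, by which STAT3 is switched on.

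Promoter sequences, 250 bases before to 50 after the start of transcription, were read from RefSeq (GRCh38.p14) for 9 of the 10 genes. The 3 printed here belong to the genes with the largest rises. They are shown because these genes moved together, and capitals mark a match to a searched motif. No searched motif was found in more than 1 of the 3. 
IL24, chr1:206897193-206897492, plus strand: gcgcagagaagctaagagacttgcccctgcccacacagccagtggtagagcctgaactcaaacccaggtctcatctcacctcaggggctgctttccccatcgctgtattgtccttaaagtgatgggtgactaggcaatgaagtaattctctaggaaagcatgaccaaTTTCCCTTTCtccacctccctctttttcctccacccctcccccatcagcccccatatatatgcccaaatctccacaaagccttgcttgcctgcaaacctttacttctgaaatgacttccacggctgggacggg
IL7R, chr5:35856641-35856940, plus strand: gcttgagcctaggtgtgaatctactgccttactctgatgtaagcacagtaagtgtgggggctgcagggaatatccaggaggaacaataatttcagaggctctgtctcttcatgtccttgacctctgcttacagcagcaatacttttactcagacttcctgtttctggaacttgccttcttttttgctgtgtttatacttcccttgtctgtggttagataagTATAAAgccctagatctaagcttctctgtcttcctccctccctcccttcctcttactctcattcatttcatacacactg
IL6R, chr1:154405093-154405392, plus strand: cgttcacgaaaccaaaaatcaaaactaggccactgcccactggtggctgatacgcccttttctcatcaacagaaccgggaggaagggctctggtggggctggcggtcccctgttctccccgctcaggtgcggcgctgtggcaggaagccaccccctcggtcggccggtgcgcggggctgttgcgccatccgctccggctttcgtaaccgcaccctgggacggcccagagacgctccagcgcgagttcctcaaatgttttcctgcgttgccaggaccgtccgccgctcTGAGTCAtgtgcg

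The searched letters were TTCNNNGAA for STAT factors, TGANTCA for AP-1, TGACGTCA for CREB, GAAA, any 2 bases and GAAA for interferon response elements and the NF-kB consensus, each on both strands, and TATAAA on the sense strand. IL24 had a single match, to the interferon response letters at position -83. IL7R had TATAAA at -29, and IL6R had TGAGTCA, an AP-1 match, at 38. AP-1 letters also stood in the windows of IL11 at -96 and OSMR at 4, making 3 of 9 genes, beside 7.71% of all 35116 promoters in the table. NF-kB letters were found at IL6 (GGGATTTTCC at -73) and IL6ST (-53), that is in 2 of 9 genes, beside 11.3% of all promoters. The STAT letters were in 0 of 9 windows, beside 7.66% of all promoters, and the CREB letters in 0 of 9, beside 1.85%. Interferon response letters were present in 3.57% and TATAAA in 7.33% of all promoters. These are matches of letters in a short window, and no binding was measured.

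In the 3′ untranslated regions (UTRs), the 7 letters GCTCACT, which an earlier look at these data had linked to genes that fell, were searched in the longest 3′ UTR of each gene in GENCODE 29. They occurred in 2 of the 10 genes, OSMR with 2 sites and LIF with 1, and 19.0% of 12275 tested genes with a 3′ UTR of at least 50 bases carried them. The share among these genes was thus close to that of all genes. Length was not matched: the 3′ UTRs of the 10 genes had 429 to 7641 bases, against a median of 1410. The letters came from these same data, so nothing is read from the falls of OSMR and LIF. The sites are shown with their flanks because they are the only such matches here (capitals: GCTCACT, with GRCh38 positions of the capitals). 
OSMR, chromosome 5, 38934571 to 38934577, plus strand: gtgcaatctcaGCTCACTgcagcttccgc
OSMR, chromosome 5, 38934906 to 38934912, plus strand: gtgcagccttgGCTCACTgcaacctccgc
LIF, chromosome 22, 30243349 to 30243355, minus strand: tttggccccttGCTCACTttgtgcagtga
IL6 and IL6ST, which also fell, had no match. Any part of the letters in these falls was not tested.

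All 10 genes had enough counts to be tested, and all 10 passed an adjusted p of 0.05, 6 upwards and 4 downwards, where 62.5% of all genes tested passed. In all 10 the groups did not overlap, as in 67.6% of all genes tested. Since the genes were chosen in view of this contrast, nothing is read from either count. In a bulk sample, fewer cells that express a gene and less of its RNA per cell cannot be told apart.

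**Figure D1:**
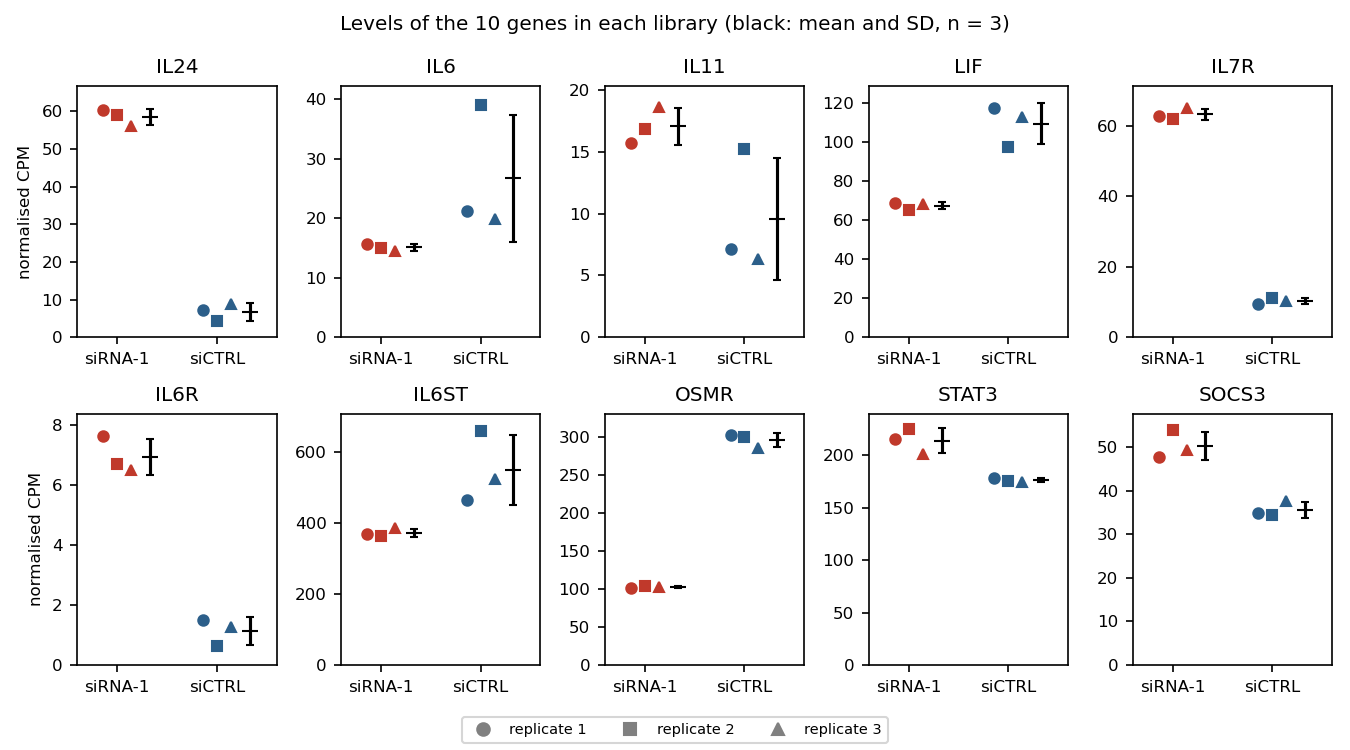
Normalised CPM of each of the 10 genes in each library (vertical axes, from 0, a separate scale for each gene); symbols are replicates, siRNA-1 in red and siCTRL in blue, and black bars are the mean and SD of 3 cultures. The groups are separated in every panel, and the blue square of siCTRL 2 lies far from the other controls for IL6, IL11 and IL6ST.

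Among the ligands, IL24 moved most. IL24, a cytokine of the IL10 family best known for its effects on tumour cells and skin, had 60.5, 59.0 and 56.2 CPM in siRNA-1 1 to 3, against 7.19, 4.19 and 8.92 CPM in siCTRL 1 to 3. Every siRNA-1 library was far above the highest control, while the controls differed among themselves, with siCTRL 2 the lowest. IL24 rose 8.60-fold (log2 fold change 3.10, SE 0.161), and 7.22-fold without siCTRL 2. IL24 (ENSG00000162892) lies on chromosome 1 from 206897443 to 206904139 on the plus strand (GRCh38), in a cluster with the related cytokine genes IL10, IL19 and IL20. These neighbours were close to silent: IL19 had 0 to 1 counts, IL20 1 to 4 counts in siRNA-1 and 0 to 2 in siCTRL libraries, and IL10 had 0 counts in 5 libraries and 2 in siCTRL 2. The rise was therefore not seen in the other cytokine genes of the cluster at this depth, where 3 counts correspond to at most 0.234 CPM. Of the 6 other genes within 200000 bases that were tested, looked at after their values were known, 3 rose and 3 did not pass. Over all genes tested, 62.5% passed and 31.5% rose. FCMR, an immunoglobulin receptor gene whose annotated end faces that of IL24, rose with a log2 fold change of 0.64, YOD1 with 0.83 and MAPKAPK2, the gene of a kinase that acts below p38, with 0.15 (adjusted p = 0.00659, 1.84e-07 and 0.0302, edgeR). PFKFB2, C1orf116 and C4BPB did not pass (adjusted p = 0.18, 0.935 and 0.227). PFKFB2 varied between the controls, with 399 counts in siCTRL 2 against 842 in siCTRL 1 and 689 in siCTRL 3.

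IL6, the name-giving cytokine of the family and a product of inflamed and of many tumour cells, was lower. IL6 had 15.7, 15.04 and 14.5 CPM in siRNA-1 1 to 3, against 21.1, 39.0 and 19.9 CPM in siCTRL 1 to 3. The siRNA-1 cultures were tightly grouped below all controls, and siCTRL 2 was well above the other controls. IL6 fell 1.76-fold (log2 fold change -0.82, SE 0.212), but 1.38-fold (-0.46) when siCTRL 2 was left out. Its annotated exons share 20.7% of their bases with the antisense gene AC073072.1, and no source used here states whether strand was used in counting, so that reads of that gene cannot be told apart from those of IL6.

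IL11, a relative of IL6 that uses the same signalling chain, moved the other way. IL11 had 15.7, 16.8 and 18.7 CPM in siRNA-1 1 to 3, against 7.12, 15.2 and 6.32 CPM in siCTRL 1 to 3. The value of siCTRL 2 lay just under the lowest siRNA-1 culture, whereas the other controls were far below it. IL11 rose 1.80-fold with all libraries (log2 fold change 0.85, SE 0.247) and 2.51-fold without siCTRL 2 (1.33). IL11 was also the 1 gene of the 10 whose call was lost under an alternative, the DESeq2 Wald test. Thus IL6 and IL11 changed in opposite directions in siRNA-1 cells, although both were high in siCTRL 2 relative to the other controls.

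LIF, a cytokine of the family known for holding stem cells in their state, had 68.9, 65.3 and 68.0 CPM in siRNA-1 1 to 3, against 118, 97.6 and 113 CPM in siCTRL 1 to 3. Unlike IL6 and IL11 it was lowest, not highest, in siCTRL 2 among the controls, and the groups were well apart. LIF fell 1.62-fold (log2 fold change -0.70, SE 0.073). The antisense genes LIF-AS1 and AC004264.1 overlap 2.32% and 4.41% of its exonic bases.

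The remaining ligands of the family were at low levels except CLCF1. OSM, which encodes oncostatin M and signals through OSMR, had 0 counts in all libraries, which allows up to 0.234 CPM. CTF1, the cardiotrophin gene, averaged 2.61 ± 0.321 CPM in siRNA-1 and 4.81 ± 0.878 CPM in siCTRL cells (SD, n = 3 each) and fell 1.85-fold (adjusted p = 0.00251, edgeR). CLCF1, a cardiotrophin-like cytokine gene, averaged 26.3 ± 1.11 and 22.2 ± 2.29 CPM in siRNA-1 and siCTRL cells and rose 1.18-fold (adjusted p = 0.0369), a call lost under 8 of 13 alternatives, with an adjusted p of up to 0.137. Of the 8 other ligand genes 3 were tested, with 1 rise and 1 fall, where 62.5% of all genes tested passed, and CNTF without a call (adjusted p = 0.231, log2 fold change -0.54). Without siCTRL 2, CNTF passed downwards (adjusted p = 0.0313, edgeR, log2 fold change -0.79).

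Among the receptors, IL7R and IL6R rose, and IL6ST and OSMR fell. IL7R, the alpha chain of the receptors for IL7 and TSLP, had 62.8, 62.0 and 65.2 CPM in siRNA-1 1 to 3, against 9.31, 11.1 and 10.3 CPM in siCTRL 1 to 3. Both groups were tight, and every control was far below every siRNA-1 value. IL7R rose 6.20-fold (log2 fold change 2.63, SE 0.084), the steadiest of the large rises, with 2.56 to 2.68 over all alternatives run. IL7R (ENSG00000168685) is on chromosome 5 from 35852695 to 35879603 on the plus strand.

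The partners of IL7R were near the detection limit. IL2RG, the common gamma chain, had 0, 2 and 1 counts in siRNA-1 1 to 3, against 2, 1 and 2 counts in siCTRL 1 to 3. The ligand gene IL7 had 8, 11 and 5 counts in siRNA-1 and 11, 13 and 11 counts in siCTRL libraries and did not pass (adjusted p = 0.17, log2 fold change -0.64). TSLP, the other ligand, had 0 counts in all libraries. CRLF2, which pairs with IL7R to bind TSLP, was also at 0, but it is a pseudoautosomal gene listed on both sex chromosomes, and none of the 18 genes listed in this way had more than 1 count in any library, so that its 0 says nothing of its level. Of the 12 other genes of the IL7 and common gamma chain list 5 were tested, of which 2 rose and 1 fell, where 31.5% of all genes tested rose and 31.0% fell: IL4R (log2 fold change 0.32, adjusted p = 0.002) and IL13RA1 (0.15, adjusted p = 0.0403) rose, IL15 fell (-0.46, adjusted p = 0.0105), and IL7 and IL15RA did not pass. The call of IL13RA1 was lost without siCTRL 2 (adjusted p = 0.0742) and under 9 of 13 alternatives in all.

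IL6R, the chain that binds IL6 and also works in a soluble form shed from the cell, was the least abundant of the 10 genes per kilobase of exon. It had 109, 101 and 95 counts in siRNA-1 1 to 3, against 22, 8 and 17 counts in siCTRL 1 to 3, that is 7.61, 6.69 and 6.47 CPM against 1.51, 0.621 and 1.26 CPM. The groups were far apart, but the control values rested on 8 to 22 reads, and siCTRL 2 was the lowest. IL6R rose 6.01-fold (log2 fold change 2.59, SE 0.244), and 4.91-fold without siCTRL 2. GENCODE 29 lists a pseudogene, IL6RP1, and how reads that match both were counted is not stated. The proteases that shed IL6R moved little: ADAM10 averaged 312 ± 11.9 CPM in siRNA-1 and 360.4 ± 25.6 CPM in siCTRL cells and fell (log2 fold change -0.21, adjusted p = 0.0112, up to 0.0632 when a siRNA-1 library was left out). ADAM17 did not pass (0.11, adjusted p = 0.12), though it did with library size as the only scaling (0.15, adjusted p = 0.0475).

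IL6ST, the gp130 chain, had the highest mean of the 4 receptors per kilobase of exon. IL6ST had 369, 363 and 386 CPM in siRNA-1 1 to 3, against 467, 659.8 and 525 CPM in siCTRL 1 to 3. All controls were above all siRNA-1 cultures, and siCTRL 2 was again the highest. IL6ST fell 1.48-fold (log2 fold change -0.56, SE 0.1), and 1.34-fold without siCTRL 2. An antisense gene, AC008914.1, overlaps 8.58% of its exonic bases, and a pseudogene, IL6STP1, is annotated.

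OSMR, which joins IL6ST to form the oncostatin M receptor and joins IL31RA to form the IL31 receptor, fell most. OSMR had 101, 103 and 102 CPM in siRNA-1 1 to 3, against 302, 299.8 and 285 CPM in siCTRL 1 to 3. Each group varied by only a few percent, and siCTRL 2 sat between the other controls. OSMR fell 2.89-fold (log2 fold change -1.53, SE 0.052), with -1.57 to -1.50 over all alternatives. It is the gene with 2 of the GCTCACT sites shown above, and it overlaps RICTOR on the opposite strand over 3.19% of its exonic bases. OSMR lies on chromosome 5 from 38845858 to 38945596 on the plus strand, on the same chromosome as IL7R, which moved the other way.

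The 5 other receptors of the family that were examined gave 3 falls, no rise and 1 not passing among 4 tested, where 62.5% of all genes tested passed and 31.0% fell (median log2 fold change -0.29, against 0.0059 over all genes tested). LIFR, the LIF receptor, averaged 60.9 ± 2.88 CPM in siRNA-1 and 71.2 ± 7.11 CPM in siCTRL cells and fell 1.17-fold (adjusted p = 0.0249, lost under 4 of 13 alternatives, with up to 0.117). IL31RA fell 1.27-fold (adjusted p = 0.00138) and IL27RA 1.45-fold (adjusted p = 0.00209). IL11RA, the receptor of IL11, did not pass, at 2.40 ± 0.457 CPM in siRNA-1 and 2.60 ± 0.588 CPM in siCTRL cells (adjusted p = 0.711), and CNTFR had 0 counts in all libraries.

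The ratio of OSMR to IL6ST RNA was lower in siRNA-1 cells, and that of IL6R to IL6ST RNA was higher, without overlap between the groups. These genes were chosen in view of this contrast, so the separation is a description and nothing is read from it. Per kilobase of exon, OSMR stood at 35.5%, 36.9% and 34.3% of the IL6ST level in siRNA-1 1 to 3, against 83.9%, 58.8% and 70.4% in siCTRL 1 to 3. These ratios are formed within a library and do not depend on how libraries are scaled. IL6R stood at 2.68% ± 0.277 of the IL6ST level in siRNA-1 and 0.316% ± 0.167 in siCTRL cells (SD, n = 3 each), so that IL6ST RNA was in large excess over IL6R RNA in both. LIFR stood at 12.8% ± 0.671 of IL6ST in siRNA-1 and 10.2% ± 0.784 in siCTRL cells.

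**Figure D2:**
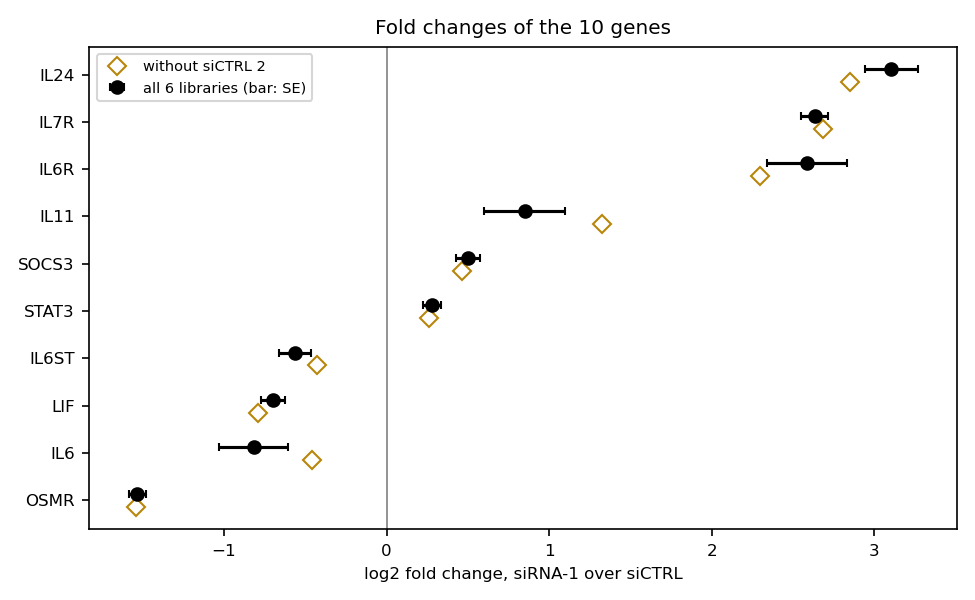
Log2 fold change of siRNA-1 over siCTRL for the 10 genes (horizontal axis), with all 6 libraries (filled circles, bars are the SE) and without siCTRL 2 (open diamonds). The direction was the same for each gene with and without siCTRL 2, and the points moved furthest for IL11 (0.85 against 1.33) and IL6 (-0.82 against -0.46).

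The receptor chains for IL24 were scarce in these cells. IL20RB, which is part of both IL24 receptors, had 19, 17 and 14 counts in siRNA-1 1 to 3, against 12, 18 and 17 counts in siCTRL 1 to 3, and did not pass (adjusted p = 0.96). Its partner IL22RA1 had 7, 13 and 9 counts in siRNA-1 and 29, 15 and 26 counts in siCTRL libraries. IL22RA1 fell 2.57-fold (adjusted p = 0.00452), and 2.98-fold without siCTRL 2. The alternative partner IL20RA, with 5 to 9 counts in siRNA-1 and 10 to 17 in siCTRL libraries, fell 1.99-fold (adjusted p = 0.0428), a call lost under 8 of 12 alternatives, with up to 0.149. IL10RB, a chain shared by receptors of related cytokines, rose 1.505-fold (adjusted p = 0.0133, and 0.0547 without siRNA-1 2), and 1.35-fold without siCTRL 2. Of the 11 other genes of this list 4 were tested, with 1 rise and 2 falls, where 31.5% of all genes tested rose and 31.0% fell. Per kilobase of exon, IL24 stood at 29.6 CPM per kb in siRNA-1 cells, in which IL20RA, IL20RB and IL22RA1 averaged 0.105, 0.459 and 0.234 CPM per kb.

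Inside the cell, STAT3 and SOCS3 rose by small amounts. STAT3, the transcription factor that carries the signal of the family, had 215, 225 and 202 CPM in siRNA-1 1 to 3, against 179, 176 and 175 CPM in siCTRL 1 to 3. The controls lay within a few CPM of each other and below all siRNA-1 cultures. STAT3 rose 1.21-fold (log2 fold change 0.28, SE 0.056). SOCS3, the feedback inhibitor that STAT3 induces, had 47.7, 53.9 and 49.3 CPM in siRNA-1 1 to 3, against 34.8, 34.3 and 37.5 CPM in siCTRL 1 to 3, again without overlap. SOCS3 rose 1.42-fold (log2 fold change 0.50, SE 0.074).

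Among the kinases next to the receptors, JAK1 and TYK2 changed little. Of the JAK genes, JAK1, TYK2 and JAK3 did not pass, with log2 fold changes of 0.07, 0.07 and 0.09 (adjusted p = 0.285, 0.385 and 0.841). JAK3 had only 14, 13 and 12 counts in siRNA-1 1 to 3, against 13, 14 and 7 counts in siCTRL 1 to 3. Its result is therefore limited by depth. JAK2, at 10.8 ± 1.49 CPM in siRNA-1 and 7.99 ± 0.964 CPM in siCTRL cells, rose 1.36-fold (adjusted p = 0.0171), a call lost without siRNA-1 3 (0.0882) and without siCTRL 3 (0.0711). Among other STAT genes, STAT4 did not pass (adjusted p = 0.971). It had only 13, 8 and 15 counts in siRNA-1 1 to 3, against 9, 10 and 14 counts in siCTRL 1 to 3. STAT5A rose 1.21-fold (adjusted p = 0.0116; 0.0518 without siRNA-1 2), whereas STAT2 fell 1.77-fold (adjusted p = 4.91e-07) and STAT6 1.38-fold (adjusted p = 2.24e-05). STAT5B fell 1.15-fold (adjusted p = 0.0299), a call lost under 6 of 13 alternatives, with up to 0.147.

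The inhibitors of the pathway other than SOCS3 were split. Among 16 others, all tested, 3 rose, 7 fell and 6 did not pass (62.5% called, as over all genes tested). SOCS1, an inhibitor that binds JAK kinases, averaged 2.33 ± 0.221 CPM in siRNA-1 and 5.01 ± 1.38 CPM in siCTRL cells. SOCS1 fell 2.13-fold (adjusted p = 0.00138), and 1.83-fold without siCTRL 2. SOCS2 fell 1.21-fold (adjusted p = 0.0297, lost under 4 of 13 alternatives, with up to 0.136), and CISH did not pass (adjusted p = 0.216, log2 fold change -0.51). PTPN11, which encodes the phosphatase SHP2 that docks at gp130, fell 1.32-fold (adjusted p = 0.000114). The largest changes of the list were those of SH2B3, an adaptor that restrains JAK2, which fell 1.96-fold (adjusted p = 2.17e-07), SOCS1, and SOCS7, which rose 1.96-fold (adjusted p = 1.35e-06).

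Known target genes of STAT3 split. Of 24 listed genes besides SOCS3, 21 were tested: 7 rose, 8 fell and 6 did not pass (71.4% called, beside 62.5% of all genes tested; median log2 fold change -0.11, against 0.0059). The largest falls were those of HIF1A, the oxygen-regulated transcription factor gene, which averaged 133 ± 4.44 CPM in siRNA-1 and 530.5 ± 62.4 CPM in siCTRL cells (fell 3.97-fold, adjusted p = 3.15e-09), and of VEGFA, a growth factor gene for blood vessels (2.64-fold, adjusted p = 5.07e-09). CEBPD, a transcription factor gene of the acute phase response, fell 2.00-fold with all libraries and 1.65-fold without siCTRL 2, in which it was high, and the survival gene BCL2L1 fell 1.91-fold (adjusted p = 0.000692 and 7.07e-08). The largest rises were those of ZFP36, whose protein degrades cytokine transcripts (1.92-fold, adjusted p = 4.21e-05), and JUNB, an AP-1 subunit gene (1.73-fold, adjusted p = 3.29e-05). FOS, another AP-1 gene at 2.70 ± 0.283 CPM in siRNA-1 and 1.58 ± 0.238 CPM in siCTRL cells, rose 1.70-fold (adjusted p = 0.0123), and BIRC5, also a gene of mitosis, rose 1.66-fold (adjusted p = 2.68e-07). Without siCTRL 2, 9 of these targets rose and 8 fell, since BCL3 and ICAM1 then passed upwards (log2 fold changes 0.30 and 0.17, against 0.01 and 0.01 with all libraries). Both were high in siCTRL 2, by 0.79 and 0.47 on the log2 scale over the other controls.

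**Figure D3:**
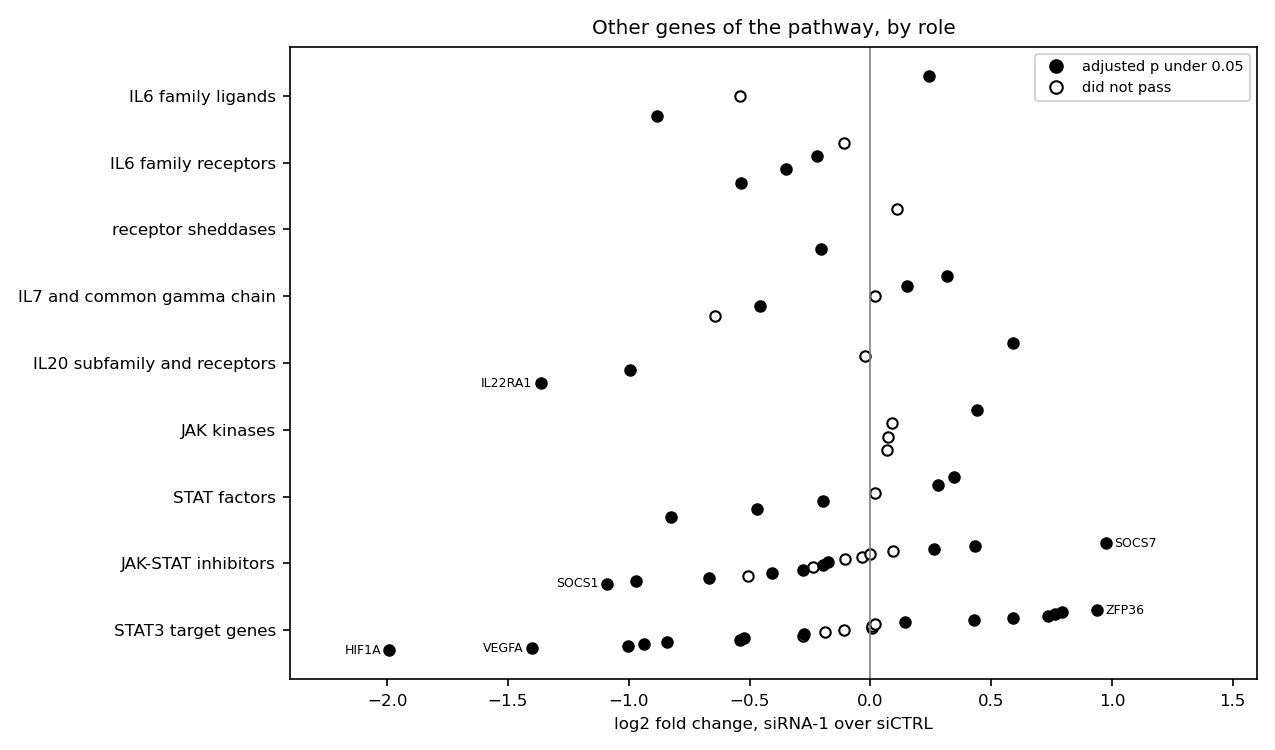
Log2 fold change of siRNA-1 over siCTRL (horizontal axis) of the 65 tested genes of the pathway other than the 10, by role (rows); filled points passed an adjusted p of 0.05 (edgeR) and open points did not. Points lie on both sides of 0 in most rows, all 4 tested receptors of the IL6 family lie below 0, and HIF1A and VEGFA lie furthest to the left.

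Over the pathway as a whole, 65 of the 88 other genes were tested, of which 17 rose, 26 fell and 22 did not pass. The share that passed, 66.2%, was close to the 62.5% of all genes tested. At least 2-fold changes were 5 falls (HIF1A, VEGFA, IL22RA1, SOCS1 and CEBPD) and no rise, where 1.97% of all genes tested rose and 8.14% fell by that much. Without siCTRL 2 they were 4 falls (HIF1A, VEGFA, IL22RA1 and CTF1) and 1 rise (SOCS7, 2.09-fold), where 2.44% of all genes tested rose and 8.37% fell by that much. At a threshold of 0.01 the count was 27 of 65, with 9 rises and 18 falls. Over all genes, 6206 of 12440 passed at that threshold, with 3096 rises and 3110 falls.

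The controls themselves differed in this pathway. Relative to the mean of siCTRL 1 and siCTRL 3, siCTRL 2 was higher on the log2 scale by 1.18 for IL11, 0.93 for IL6, 0.41 for IL6ST and 0.61 for SOCS1. It was lower, with differences of -1.16 for IL6R, -0.94 for IL24 and -0.24 for LIF. IL7R (0.18), SOCS3 (-0.08), OSMR (0.03) and STAT3 (-0.01) were closer to the other controls. The libraries carry no label that sets siCTRL 2 apart.

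The order of the levels per kilobase of exon differed between the groups. With the exons of all transcripts as the length, IL6ST was highest in siRNA-1 cells (40.1 ± 1.27 CPM per kb), followed by IL24 (29.6 ± 1.10), STAT3 (24.3 ± 1.34), SOCS3 (18.4 ± 1.18), LIF (17.0 ± 0.469), OSMR (14.2 ± 0.157), IL7R (10.5 ± 0.276), IL6 (7.29 ± 0.291), IL11 (6.39 ± 0.559) and IL6R (1.07 ± 0.0939), and no neighbours in that order overlapped (SD, n = 3). In siCTRL cells the order ran IL6ST (59.2 ± 10.7 CPM per kb), OSMR (41.2 ± 1.27), LIF (27.6 ± 2.63), STAT3 (20.03 ± 0.219), SOCS3 (13.01 ± 0.633), IL6 (12.9 ± 5.16), IL11 (3.58 ± 1.84), IL24 (3.42 ± 1.21), IL7R (1.69 ± 0.148) and IL6R (0.175 ± 0.0708). There the libraries of SOCS3 and IL6 overlapped, as did those of IL11 and IL24, so that neither pair can be ordered. With the longest transcript as the length, part of the order changed. In siRNA-1 cells STAT3 (42.4 ± 2.33 CPM per kb) then overlapped IL6ST (41.1 ± 1.31) at the top, IL24 (32.2 ± 1.19) came after them, and OSMR (18.5 ± 0.204) overlapped SOCS3 (18.4 ± 1.18), above LIF. In siCTRL cells IL6ST (60.8 ± 10.9 CPM per kb) overlapped OSMR (53.4 ± 1.64), STAT3 (35.0 ± 0.383) came before LIF (27.6 ± 2.63), IL6 (17.5 ± 6.99) overlapped LIF and SOCS3, and IL24 (3.72 ± 1.31) overlapped IL11 (4.19 ± 2.16) and IL7R (2.21 ± 0.194). With either length, IL24 was among the 3 highest of the 10 in siRNA-1 cells and overlapped IL11 near the low end in siCTRL cells, and IL6R was lowest in both.

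**Figure D4:**
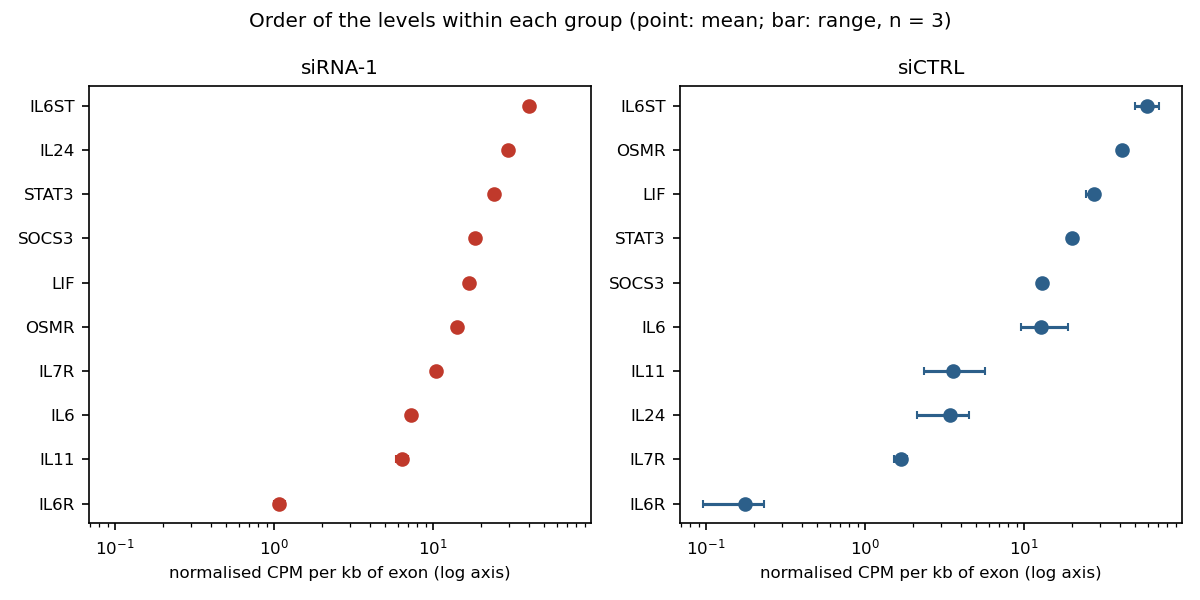
Mean normalised CPM per kilobase of exon (horizontal log axis) of the 10 genes, ordered within siRNA-1 (left) and siCTRL (right) cells; bars are the range of 3 libraries. With this length IL24 stands next to IL6ST in siRNA-1 cells and next to IL11 in siCTRL cells, and IL6R is lowest in both.

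For the genes with the largest rises, the genes most alike in their values over the 6 libraries were found by Euclidean distance of centred log2 CPM among the 11474 tested genes whose log2 CPM averaged 1 or more. The nearest to IL24 were IL6R (0.845), the antiviral gene RSAD2 (0.952) and IL7R (1.12). IL7R was nearest to RSAD2 (0.319), the cholesterol hydroxylase gene CH25H (0.365) and the aldo-keto reductase gene AKR1B10 (0.537). IL6R was nearest to AKR1B10 (0.792), IL24 (0.845) and RSAD2 (0.879). A large rise is what these genes share in the first place, since their log2 fold changes were 2.33 to 3.10.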

How the data were processed

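The deposited table gives raw read counts per Ensembl gene in 6 libraries (1 column each, tied to the samples by name), which the authors made with HTSeq per the submitters' processing notes. These notes also name Trimmomatic, STAR, kallisto and hg38 without versions or settings, and the libraries were made with a NEBNext Ultra kit per the labels. Annotation release, strand setting and filters are not stated.

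Symbols were matched by Ensembl identifier, and positions, exon lengths and 3′ UTRs came from GENCODE 29. Genes were kept by filterByExpr (minimum count 10, minimum total 15), leaving 12440, and tested with edgeR 4.0.16 in R 4.3.3 (TMM scaling, quasi-likelihood F test, two-sided, group as the only term, Benjamini-Hochberg adjustment). Depth of 12813706 to 15014434 counts gave a floor of 3 counts, at most 0.234 CPM, for counting error only. The fit was tested on simulated counts. Alternatives were DESeq2 1.42.0 size factors or Wald test, library size only, no filter, a mean of 100 counts, limma-voom (limma 3.58.1), a replicate block, each library left out and a threshold of 0.01.

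The members, lists, GCTCACT letters and naming rule were chosen with earlier results of these data known. The naming rule took the 10 genes, their partners by role, the 4 largest rises and falls among STAT3 targets and the 3 nearest genes of IL24, IL7R and IL6R. Other names were chosen after their values were seen. Libraries with the same replicate number were not treated as pairs, and the labels do not state whether they were handled together. Some genes of the lists are not reported here.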

Additional observations from a re-analysis of the deposited data

How the results depend on the processing

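Over 13 alternatives at the same threshold, each of the 10 genes kept its direction in every setting run, and 9 kept the call in all of them. IL11 was the exception (DESeq2 Wald test). Since the 10 genes were chosen in view of this contrast, nothing is read from how many kept it. Among the 43 other pathway genes called, 29 kept the call in every setting run and 14 lost it in at least 1. The count of pathway genes changed was 43 of 65 tested, and 37 to 43 of 65 under the other scalings and tools. Other filters also changed the number tested, with 41 of 77 changed without a filter and 33 of 50 at a mean of 100 counts. The count was 30 to 44 of 65 with each library left out in turn. It moved to 27 at a threshold of 0.01. The count over all genes was 7772, 6848 to 8635 with each library left out, and 6206 at a threshold of 0.01. Of the pathway genes tested, 11 reversed direction in at least 1 setting, 0 of them with a call in the reversed direction. Among named genes, the log2 fold changes with each library left out were -0.2387 to 0.1177 for IL20RB, -0.2722 to 0.0863 for IL11RA, -0.0012 to 0.0901 for TYK2, -0.0532 to 0.0717 for IL15RA, -0.1542 to 0.2959 for JAK3, -0.1693 to 0.2602 for STAT4, -0.1542 to 0.3041 for BCL3, -0.0799 to 0.1688 for ICAM1 and, beside IL24, -0.1590 to 0.1839 for C1orf116. Other reversed values were 0.0159 for IL20RB (library size only), -0.0169 for IL15RA, -0.0296 for BCL3 and -0.0297 for ICAM1 (a mean of 100 counts), -0.0072 for STAT4 (limma-voom) and -0.0009 for BCL3 (DESeq2 Wald test). The cause was not tested. With the replicate block, 38 pathway genes and 7535 of all genes changed. The main comparison had no block, and same-numbered libraries did not deviate together (correlations of 0.0669, -0.0782 and -0.0571 over genes). Of the log2 fold changes of the 10 genes, that of OSMR moved by more than its small replicate spread (-1.50 with library size only and -1.57 at a mean of 100 counts). IL6R was not tested at a mean of 100 counts. Depth limits, among others, IL6R in controls, IL7, IL20RA, IL20RB, IL22RA1, JAK3, STAT4, CISH and C1orf116, which rest on fewer than 30 reads per library.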
